A study of Mus musculus with 102 samples.

Results

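Wild-type mouse embryonic stem cells were compared at day 4 after transduction with Cre protein against cells given mock treatment, by amplicon bisulfite sequencing of the same CpGs. The members were all CpGs of the wild-type amplicon table with a deposited methylation level in each of the 6 samples, 3 Cre and 3 mock. They numbered 372 of 405 CpGs and lay in 57 of 65 amplicons. The other 33 CpGs belonged to 8 amplicons of low-methylated regions, which therefore gave no value here. The 6 samples are part of a series of 102 samples, of which 39 are wild-type amplicon samples.

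The cells of both groups were a C57BL6/J line with wild-type TET genes and floxed copies of Dnmt3a and Dnmt3b, derived from a clone that was homozygous for both floxed genes. The labels give the Cre samples as Dnmt3a/3b catalytic dead and the mock samples as Dnmt3a/3b intact, and the mock cells received dialysis buffer without Cre. Cells were moved from feeders to feeder-free culture in both groups. The amplicons do not cover the floxed exons, so the genotype labels could not be checked in these values, and uncut alleles within a Cre sample would count towards its level. Each group had 3 replicates, and the labels name no sequencing or library batch.

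DNMT3A and DNMT3B place methyl groups on unmethylated CpGs, whereas DNMT1 copies the pattern of the parental strand after replication. TET enzymes oxidise methylated cytosine and thereby open a route to its removal. CpGs of promoter islands are mostly unmethylated, most of the remaining genome is highly methylated, and distal sites bound by factors such as CTCF or REST are held at low levels. Without de novo methylation, a level falls as fast as dilution by replication and active removal carry it, so an early time point catches CpGs with fast turnover first.

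Coverage summed over CpGs was 3209732 to 4704933 in the 6 samples, where a read counts once for each CpG it covers. Each value of the 372 CpGs rested on 187 to 60078 reads. The reads are PCR products without molecular identifiers, so depth does not count molecules. The mock samples of day 4 varied among themselves more than the other wild-type groups. Over 278 CpGs that all 39 wild-type amplicon samples covered, the median SD between the 3 mock samples was 7.17 percentage points, against 2.85 for Cre at day 4 and 1.28 to 2.85 over all the other 12 groups. Pearson's r between mock samples over these CpGs was 0.865 to 0.924, and the lowest r in any other group was 0.962. The median dispersion of the quasi-binomial model was 242 at day 4 and 29.0 to 72.2 at the later days, where a value of 1 would mean that read sampling alone accounts for the spread.

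The same samples also held an unusual number of levels next to 0 or 100%. Within 0.5 percentage points of either end lay 82, 60 and 122 of the 372 CpGs in mock replicates 1, 2 and 3. In the Cre samples the counts were 16, 16 and 15, and in the non-transduced samples of day 0 they were 0, 1 and 2. Later mock samples had 0 to 17 such CpGs and later Cre samples 0 to 88. Mock replicate 3 had both the most of these CpGs and the lowest depth of the 6 samples. The part of this in the differences that follow was not tested, and for amplicons described by their samples the value without mock replicate 3 is given where it changes the call.

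**Figure D1:**
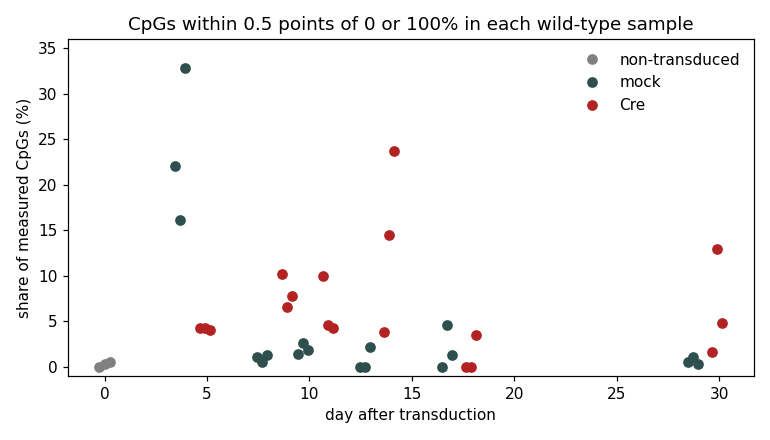
Share of the measured CpGs whose level lay within 0.5 percentage points of 0 or 100% (vertical axis, percent) by day after transduction (horizontal axis, days; points are shifted sideways for legibility). Each point is a wild-type sample, grey for non-transduced, dark for mock and red for Cre; the 3 mock samples of day 4 hold 16.1 to 32.8% of their CpGs there, against 4.03 to 4.30% in the 3 Cre samples of that day.

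The 5 amplicons with the largest loss and the amplicon with the largest gain are shown first, because the description of single CpGs refers to their order. Sequences are from the mm9 genome, plus strand, with the measured CpGs in capitals. LMR46 lies at chr12:54133614-54133849 in an intron of Akap6, REST75 at chr5:150291055-150291277 between genes, LMR32 at chr7:3349930-3350200 in an intron of Cacng7, and LMR33 at chr3:9601410-9601646 in an intron of Zfp704. LMR40 at chr11:94734338-94734445, upstream of Col1a1, is shown over the first 12 of its 14 CpGs, and LMR38 lies at chr3:65259955-65260060 between genes.
LMR46: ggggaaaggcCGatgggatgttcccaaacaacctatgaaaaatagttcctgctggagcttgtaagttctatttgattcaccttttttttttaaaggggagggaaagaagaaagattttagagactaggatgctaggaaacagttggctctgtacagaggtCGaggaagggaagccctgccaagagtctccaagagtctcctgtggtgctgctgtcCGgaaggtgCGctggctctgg
REST75: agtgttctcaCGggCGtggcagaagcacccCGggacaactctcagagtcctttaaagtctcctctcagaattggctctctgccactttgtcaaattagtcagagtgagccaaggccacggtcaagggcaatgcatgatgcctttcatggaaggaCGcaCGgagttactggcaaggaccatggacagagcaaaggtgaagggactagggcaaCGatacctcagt
LMR32: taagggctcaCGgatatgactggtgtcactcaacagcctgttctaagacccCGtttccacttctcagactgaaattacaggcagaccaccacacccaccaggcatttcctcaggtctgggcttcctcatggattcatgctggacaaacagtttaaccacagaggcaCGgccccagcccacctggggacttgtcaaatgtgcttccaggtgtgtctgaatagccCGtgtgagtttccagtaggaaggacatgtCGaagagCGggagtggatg
LMR40: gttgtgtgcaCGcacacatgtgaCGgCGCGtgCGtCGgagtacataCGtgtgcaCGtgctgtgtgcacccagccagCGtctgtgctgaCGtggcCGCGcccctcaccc
LMR38: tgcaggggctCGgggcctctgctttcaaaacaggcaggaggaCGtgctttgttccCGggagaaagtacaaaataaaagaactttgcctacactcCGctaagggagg
LMR33: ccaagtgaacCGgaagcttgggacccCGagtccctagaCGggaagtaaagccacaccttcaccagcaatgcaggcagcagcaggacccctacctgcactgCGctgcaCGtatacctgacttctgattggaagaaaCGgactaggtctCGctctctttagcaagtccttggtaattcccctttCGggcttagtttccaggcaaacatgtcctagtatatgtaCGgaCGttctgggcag

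Averaged over all 372 CpGs, methylation was lower with Cre than with mock in every sample at day 4. The mean levels of the Cre samples were 33.1, 32.3 and 30.9%, and those of the mock samples 40.0, 37.7 and 35.0%. The groups did not overlap, and they differed by -5.51 ± 1.59 percentage points (SE, n = 3 and 3), a loss of 14.7% of the mock level. The two-sided exact permutation test gave p = 0.1, the smallest value that 3 samples against 3 allow. Of the 372 CpGs, 264 had a lower mean with Cre and 108 a higher mean, with a median difference of -3.68 percentage points.

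Neither group was at the level it started from. The 3 non-transduced samples of day 0 had mean levels of 27.4, 26.6 and 27.1% over the same CpGs. Mock cells stood 10.6 percentage points above day 0 and Cre cells 5.07 points above it, each with p = 0.1 in the exact permutation test. Both differences share the day 0 samples. At 289 of 372 CpGs the mock mean was above day 0, and at 196 CpGs the Cre mean lay between day 0 and mock. At day 4 the loss is thus a smaller gain from day 0 at many CpGs, while at 106 CpGs the Cre mean was below day 0.

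**Figure D2:**
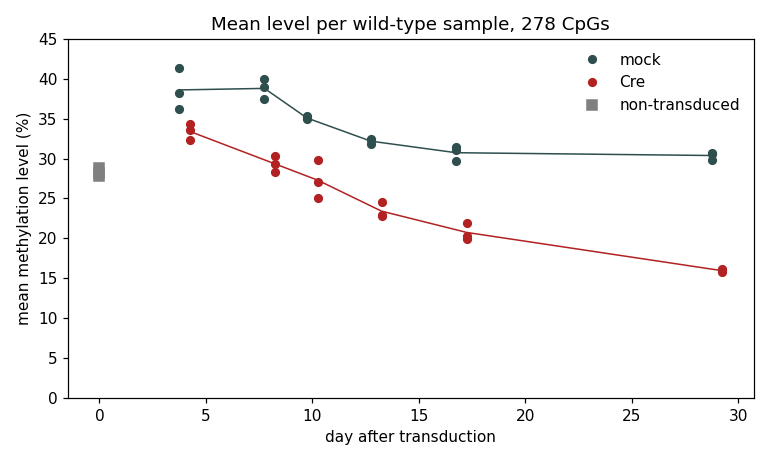
Mean methylation level (vertical axis, percent) of each wild-type amplicon sample over the 278 CpGs measured in all of them, by day after transduction (horizontal axis, days). Points are samples and lines join the means of 3 replicates; at day 4 the Cre mean was 33.4% and the mock mean 38.6%, both above the day 0 mean of 28.3%.

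No CpG passed the test on its own. With the quasi-binomial model and Benjamini-Hochberg adjustment over 372 CpGs, 0 were lower and 0 were higher with Cre at an adjusted p under 0.05 (0% called), and the lowest adjusted p was 0.113. At an unadjusted p under 0.05, 59 CpGs (15.9%) were lower and 1 (0.269%) was higher. Two-sided limma on log2 odds called 2 lower and 2 higher (0.538% each), and limma on the level called 1 lower (0.269%) and 0 higher. With the spread estimated from all 39 wild-type samples, 83 of 278 CpGs (29.9%) were lower and 9 (3.24%) higher, but that estimate takes a common spread for groups of which mock at day 4 was the most variable. Leaving out mock replicate 3 gave 4 CpGs lower and 0 higher.

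Counted without a model, all 3 Cre levels lay below all 3 mock levels at 70 CpGs (18.8%) and above them at 22 CpGs (5.91%). At the remaining 280 CpGs the groups overlapped. Losses of at least 10 percentage points occurred at 85 CpGs and gains of that size at 12. The 22 CpGs with every Cre sample above mock lay in 11 amplicons, and at 15 of them the mock mean was at most 1%. Their median difference was 3.25 percentage points, and they were spread over 11 CpGs of unmethylated regions (82 of the 372 CpGs), such as UMR17 near Hdac2, a histone deacetylase gene, 8 of LMRs bound by REST and 3 of other LMRs. In unmethylated regions every Cre sample was below mock at 4 further CpGs.

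**Figure D3:**
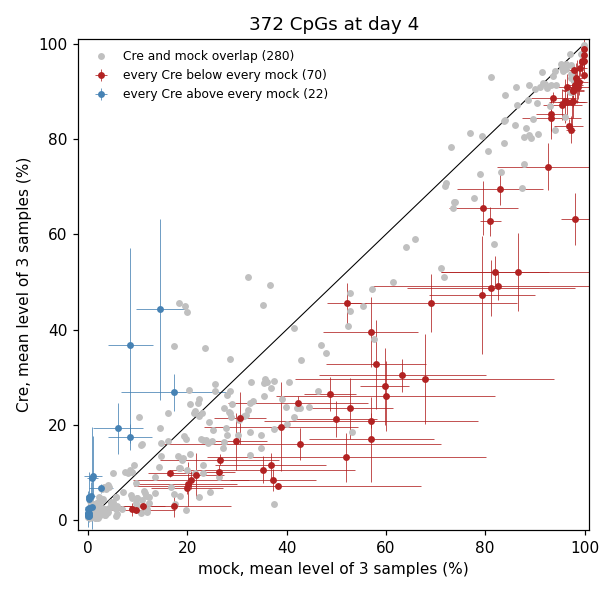
Mean level of 3 Cre samples (vertical axis, percent) against that of 3 mock samples (horizontal axis, percent) for each of the 372 CpGs, with the SD of each group as bars where the groups do not overlap and the line of equal levels. Red points are the 70 CpGs with every Cre sample below mock, blue points the 22 with every Cre sample above, and grey points the 280 that overlap; the long horizontal bars show the spread among mock samples.

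Region classes follow the names in the deposited list of regions, which no comparison of cell types checked here, and an LMR need not be low in these cells: LMR7, a constitutive one, had a day 0 mean of 68.6%. In percentage points Cre fell furthest short of mock in low-methylated regions (LMRs) listed as constitutive and in those bound by CTCF. CTCF is the insulator protein that shapes chromatin loops. Losses by class are shortfalls against mock and not falls from day 0. Constitutive LMRs stood 20.6 points above day 0 with mock and 6.29 with Cre, and CTCF LMRs 13.3 and 1.93. Only in unmethylated regions was the Cre mean below day 0 (-0.857 points). The constitutive LMRs (43 CpGs, 9 amplicons without a factor named) had 31.1, 32.8 and 29.9% with Cre and 47.4, 46.8 and 42.4% with mock. Their difference was -14.3 ± 1.78 percentage points (SE, n = 3 and 3), or 31.4% of the mock level. CTCF LMRs (20 CpGs) had a Cre mean of 20.7% ± 0.902 (SD) and a mock mean of 32.1% ± 2.94 (SD), a difference of -11.4 ± 1.78 points, or 35.5% of the mock level.

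LMRs bound by REST, the repressor of neuronal genes in other cells, lost fewer points from a lower level. Their 93 CpGs fell short of mock by 5.65 percentage points, from 19.8% to 14.2%, which was 28.5% of the mock level. Unmethylated regions (82 CpGs) were at 2.09% with Cre and 3.44% with mock, a difference of -1.35 points, which was -0.710 points without mock replicate 1. The share of the mock level lost was 39.1% with all 3 mock samples.

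Highly methylated classes differed little in relation to their level. The difference was -6.60 percentage points in fully methylated regions (22 CpGs), -5.40 in LMRs listed as specific to neuronal progenitors (30 CpGs), -3.86 in the methylated promoter-type region (6 CpGs) and -2.57 in the methylated island (12 CpGs). In relation to mock these were losses of 7.39, 6.01, 4.19 and 2.61%. In these and all the classes named so far the 3 Cre samples lay below the 3 mock samples, with p = 0.1 in the exact permutation test and an adjusted p of 0.113 over the 9 classes. With amplicons weighted equally the neuronal-progenitor class no longer separated, at -4.00 ± 2.97 points (SE, exact permutation p = 0.4), and without mock replicate 2 its difference over CpGs was -3.44 points.

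LMRs specific to embryonic stem cells were the exception. Their 64 CpGs had 46.7, 40.3 and 37.2% with Cre and 53.1, 41.6 and 39.3% with mock, so the groups overlapped and the difference of -3.28 ± 5.08 percentage points was smaller than its error (exact permutation p = 0.6). Without mock replicate 1 the difference turned to 0.926 points. The amplicon in Zfp704, where Cre was higher, weighed on this class: without it the difference was -7.74 ± 5.88 points over 54 CpGs, still with overlapping groups. That amplicon was singled out after its values were seen.

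**Figure D4:**
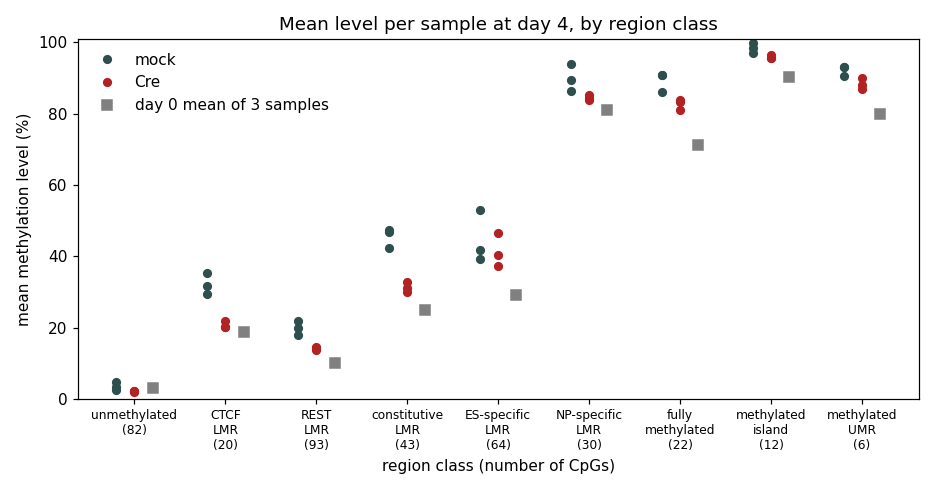
Mean methylation level (vertical axis, percent) of each day 4 sample within a region class (horizontal axis, number of CpGs in brackets). Dark points are mock samples, red points Cre samples and grey squares the mean of 3 day 0 samples; Cre lies below mock in every class except the LMRs specific to embryonic stem cells, where the groups overlap.

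Sorted by the day 0 level of the wild type, the loss in points was largest at intermediate levels, but that place depended on the line used for sorting. CpGs that started at 30 to 50% (19 CpGs) had 50.9% ± 2.86 (SD, n = 3) with Cre and 67.8% ± 3.43 (SD, n = 3) with mock, a difference of -16.9 ± 2.58 points. The differences were -3.04 points under 10% (178 CpGs), -8.79 points at 10 to 30% (86 CpGs), -9.80 points at 50 to 70% (16 CpGs), -4.42 points at 70 to 90% (55 CpGs) and -1.71 points at 90% and over (18 CpGs). In each of these 6 bins the 3 Cre samples lay below the 3 mock samples (exact permutation p = 0.1, adjusted p = 0.1). As a share of the mock level the loss declined from 31.9% in the lowest bin to 1.76% in the highest. Without mock replicate 1 the 10 to 30% bin differed by -5.47 points. Sorted by the day 0 level of cells without TET proteins (TTKO), the largest loss moved to 70 to 90%, at -13.2 points, and that of the 30 to 50% bin was -9.43 points. With that sorting the groups overlapped at 10 to 30% (-4.60 points, exact permutation p = 0.4) and at 90% and over (-4.55 points, exact permutation p = 0.3).

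Over amplicons, 49 of 57 had a lower mean level with Cre and 8 a higher one. In 22 amplicons (38.6%) every Cre sample was below every mock sample, and in 0 (0%) every Cre sample was above. Limma on the mean log2 odds called 0 lower and 0 higher (0% of 57), with 10 lower and 1 higher at an unadjusted p under 0.05. The lowest adjusted p was 0.0521, shared by NP-specific LMR41, the methylated island in AU022751 and FMR6 in an intron of Traf3, a signalling adaptor of immune receptors. Limma on the mean level called 3 amplicons lower (5.26%), LMR46, CTCF52 and REST68, each with an adjusted p of 0.0262. Without mock replicate 3 the log2 odds called 15 lower and 1 higher, and without mock replicate 1 they called 4 lower.

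LMR46 had the largest loss. It lies in Akap6, a gene for an anchoring protein of protein kinase A, and its 4 CpGs averaged 18.9, 21.6 and 20.5% with Cre and 40.2, 46.5 and 34.9% with mock. The Cre samples all lay below the mock samples, by -20.2 ± 3.43 percentage points (SE). At its first CpG, chr12:54133624, the levels were 42.7, 56.5 and 57.1% with Cre and 68.6, 95.9 and 95.0% with mock. At chr12:54133829 mock replicate 3 had 0 of 820 reads methylated, which allows a level of up to 0.366% (3 reads, counting error only), while mock replicates 1 and 2 had 29.4 and 52.9%. On the log2 odds scale, where such a value weighs heavily, the amplicon had an adjusted p of 0.554, and it had 0.0138 without mock replicate 3.

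REST75 lies 18014 bases from 4930588N13Rik, the gene nearest to it, where distances are counted from a CpG in the middle of the amplicon. Its 6 CpGs averaged 19.4, 21.1 and 17.2% with Cre and 46.1, 40.5 and 29.8% with mock, and each of the 6 was lower with Cre. Its last CpG had 17.1, 17.5 and 21.2% with Cre, and with mock 70.3 and 69.6% in replicates 1 and 2 but 19.7% in replicate 3. The adjusted p of the amplicon was 0.698, and 0.0293 without mock replicate 3.

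LMR32 lies in Cacng7, a gene for an auxiliary subunit of calcium channels and glutamate receptors. Its 6 CpGs averaged 23.8, 15.6 and 22.3% with Cre and 52.6, 33.8 and 33.2% with mock, a difference of -19.3 ± 6.83 points (adjusted p = 0.230). The first CpG differed most, with 30.5, 33.8 and 26.9% with Cre and 80.6, 62.3 and 47.1% with mock, and the day 0 mean there was 13.6%.

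LMR40 lies 63146 bases upstream of Col1a1, a collagen gene of connective tissue. Over its 14 CpGs the means were 34.5, 35.1 and 32.3% with Cre and 60.9, 42.0 and 53.4% with mock (adjusted p = 0.217). Along the amplicon the difference ranged from -38.1 points at the last CpG to 4.69 points at the eleventh. LMR38, 51169 bases from 4931440P22Rik, had 11.6 to 13.9% in the 3 Cre samples and 23.8, 36.6 and 24.4% in the mock samples (adjusted p = 0.148, and 0.0331 without mock replicate 3). Its 4 CpGs lost between 13.1 and 19.9 points, so here the loss was even along the amplicon, and the Cre mean of 12.5% was close to the day 0 mean of 11.7%.

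**Figure D5:**
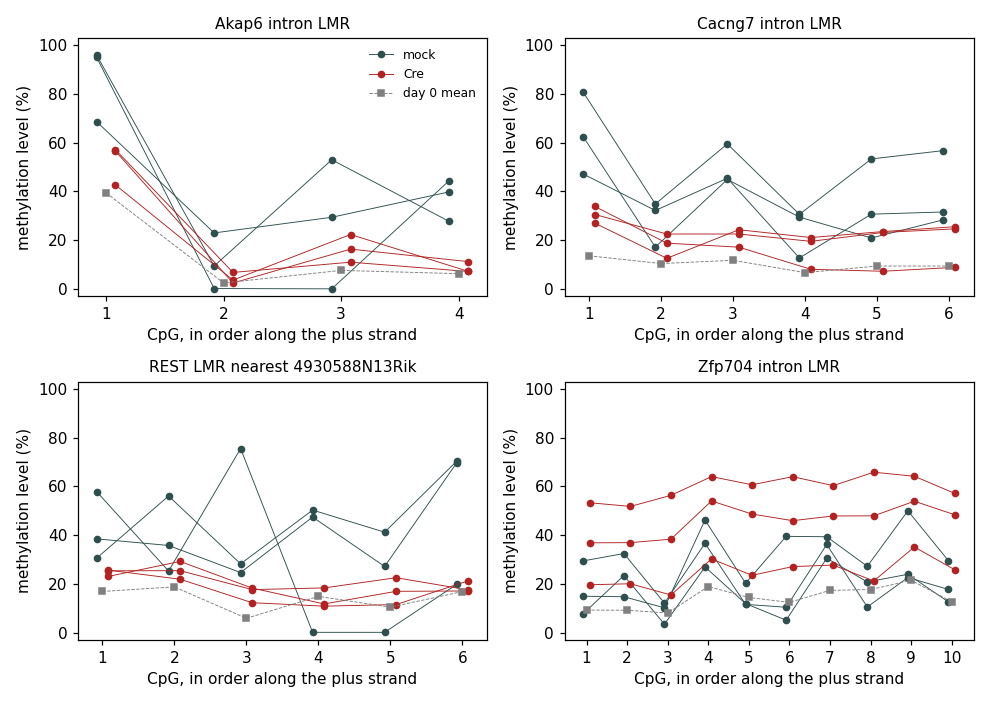
Methylation level (vertical axis, percent) of each CpG in order along 4 amplicons (horizontal axis, CpG number), with a line per sample, mock dark and Cre red, and the mean of 3 day 0 samples in grey. In the Akap6, Cacng7 and REST amplicons most Cre lines run low and close together while mock lines cross, and in the Zfp704 amplicon the Cre lines are spread and mostly high.

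Zfp704, which encodes a zinc finger protein, held the largest gain, in the intronic amplicon LMR33. Its 10 CpGs averaged 59.7, 45.9 and 24.6% with Cre and 16.6, 21.9 and 29.2% with mock. Cre replicate 3 was below mock replicate 3, so the groups overlapped, and the difference of 20.8 ± 10.9 points had an adjusted p of 0.230. All 10 CpGs had a higher mean with Cre, and at 2 of them the groups were apart. At day 8, in libraries of a later harvest, the same amplicon was 27.9 points lower with Cre.

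Other gains were small. REST76, nearest to Tcerg1l, had 6.20, 5.38 and 5.08% with Cre and 0.398, 5.33 and 1.67% with mock, and REST64 had 22.6, 26.5 and 22.0% with Cre and 21.6, 23.2 and 20.7% with mock. Both overlapped. REST64 was also among the 3 amplicons with the smallest difference at a mock level of at least 20%, and the other two were neuronal-progenitor-specific. LMR39 in Fbxl17, a ubiquitin ligase subunit gene, differed by -0.417 ± 4.61 points, and LMR47 in Scube1, a gene for a secreted protein, by 1.01 ± 6.94 points. In LMR47 mock replicate 3 stood at 73.3% and mock replicates 1 and 2 at 92.0 and 94.9%, and the log2 odds ratio of -0.51 had the opposite sign to the difference in level (adjusted p = 0.738). Without mock replicate 3 both remaining mock samples were above all 3 Cre samples, and LMR47 was called lower, with a log2 odds ratio of -1.41 (limma, adjusted p = 0.0422).

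The single CpGs named are the 10 with the largest difference among those whose groups did not overlap. All 10 were lower with Cre, by 31.6 to 40.1 percentage points, and all lay in constitutive, CTCF, REST or stem-cell-specific LMRs. The largest was chr14:20659185 in CTCF52, between genes, with 26.0, 16.6 and 8.27% with Cre and 56.2, 70.1 and 44.9% with mock on 1188 to 3627 reads. Its log2 odds ratio was -2.92 ± 0.75 (SE, adjusted p = 0.195), and at day 0 it was at 16.5%. A second CpG of this amplicon, chr14:20659404, had 47.6, 43.6 and 55.2% with Cre and 99.8, 66.5 and 77.2% with mock.

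At REST56, nearest to Ajap1, a gene for a protein of cell junctions, chr4:153053440 had 18.3, 7.99 and 13.5% with Cre and 42.2, 30.2 and 83.8% with mock. The neighbouring chr4:153053412 had 22.7, 19.9 and 20.0% against 47.4, 41.9 and 81.7%. In both, mock replicate 3 was the highest, which shows that this replicate deviated upwards as well as downwards. The CpG chr11:94734361 of LMR40 had 69.3, 61.0 and 59.3% with Cre and 99.9, 99.6 and 94.7% with mock, and limma on the level gave it an adjusted p of 0.0416. Another CpG of LMR40, chr11:94734641, had 32.5, 37.2 and 19.2% with Cre and 77.3, 38.2 and 87.8% with mock, so mock replicate 2 was barely above the Cre samples.

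The remaining named CpGs were chr12:54133624 and chr7:3349940, given above with LMR46 and LMR32, and a CpG each in LMR7 and REST61. At chr13:28387599 in LMR7 the levels were 59.2, 34.5 and 48.3% with Cre and 88.1, 82.6 and 67.4% with mock. At chr4:153281952 in REST61 they were 37.3, 24.8 and 22.3% with Cre and 62.1, 54.1 and 62.9% with mock. The adjusted p values of the 10 CpGs ran from 0.143 to 0.332 in the quasi-binomial model.

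Beyond their class, the members were described by sequence. The letters GGACAG, the right arm of the RE1 element that REST binds, occurred on either strand in 17 of 17 REST amplicons and in 50.9% of all 57 amplicons, over listed regions of 244 to 555 bases. In REST75 they stand shortly before its last measured CpG. The left arm TTCAGCACC occurred in 4 of 17 REST amplicons and in no other, and a core of the CTCF motif in 2 of 4 CTCF amplicons and in 7.02% of all 57. Matches of these letters are descriptions and not sites of binding.

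Within REST amplicons, CpGs within 50 bases of GGACAG were the least methylated, at 9.68% ± 0.294 (SD) with Cre and 15.0% ± 2.66 (SD) with mock (52 CpGs). Beyond 100 bases the means were 20.1% ± 1.19 and 26.7% ± 0.877 (18 CpGs). The differences were -5.32 points near the letters, -5.66 at 51 to 100 bases and -6.59 beyond, and whether they differ from each other was not tested. Over all 372 CpGs the difference had a Spearman correlation of 0.101 with local CpG density and of -0.286 with the day 0 level, as descriptions over CpGs that share amplicons and libraries.

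The direction at day 4 could be set beside later days, which come from other libraries. The labels use the same replicate numbers on each day, and the paper describes cells collected along a culture kept to day 29. Later libraries may thus derive from the same transduced cultures, so the days cannot be taken as independent. The same model called 137 of 358 CpGs lower at day 8 (38.3%), 93 of 369 at day 10 (25.2%), 130 of 401 at day 13 (32.4%), 205 of 399 at day 17 (51.4%) and 203 of 392 at day 29 (51.8%), with 0 higher on each of these days. Their unadjusted p was under 0.05 with a higher level at 1, 0, 4, 1 and 0 CpGs. Over the 365 CpGs measured on both days, the mean difference was -5.49 points at day 4 and -13.8 points at day 29, so day 4 held 39.8% of the later difference. Between day 4 and day 29 the differences had a Pearson correlation of 0.320 over these CpGs, as a description.

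Of the 68 CpGs with every Cre sample below mock at day 4 and a test at day 29, 57 were called lower at day 29 (83.8%), against 52.1% of all 365. At day 8 the corresponding shares were 46.9% of 64 CpGs and 40.0% of 325. The sets compared differ in makeup. Of the 70 CpGs with every Cre sample below mock at day 4, 4 lay in unmethylated regions, which held 82 of all 372 and have little to lose. The part of this in the shares was not tested. Of the 18 CpGs with every Cre sample above mock at day 4 and a test at day 8, 12 had a lower mean with Cre at day 8 and 0 were called, against 288 lower and 130 called of all 325. At day 29, 17 of 22 such CpGs had a lower mean and 4 were called (18.2%), against 327 lower and 190 called of all 365. FMR4, a fully methylated region in an intron of the calcium pump gene Atp2b2, had the largest day 29 difference of the amplicons. It was -11.5 points at day 4 and -51.8 points at day 29. For LMR38 the difference was -15.8 and -11.05 points, so the value there was not larger in size at day 29. The same held for LMR46 (-20.2 and -18.3 points), REST75 (-19.5 and -18.9) and LMR32 (-19.3 and -12.5). LMR40 went the other way (-18.1 and -26.5).

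TTKO cells were treated in the same way. Over the 345 CpGs measured in all 12 day 4 samples, Cre minus mock was -5.44 ± 1.54 percentage points in wild-type cells and -3.78 ± 0.896 points in TTKO cells (SE). The difference between the lines was -1.65 ± 1.78 points, less than its SE. The interaction test called 0 of 345 CpGs in either direction (0%), with 19 lower and 9 higher at an unadjusted p under 0.05, and limma on log2 odds called 0 lower and 1 higher. Without wild-type mock replicate 3, 3 CpGs were called as a larger loss in the wild type. In constitutive LMRs (39 shared CpGs) Cre minus mock was -13.7 points in the wild type, with the groups apart, and -6.67 points in TTKO, with overlapping groups (exact permutation p = 0.2), at mock levels of 46.1 and 63.8%. In CTCF LMRs (11 shared CpGs) the values were -15.0 points in the wild type and -6.89 points in TTKO, where the groups again overlapped (exact permutation p = 0.2). In stem-cell-specific LMRs (64 CpGs) they were -3.28 and -7.34 points, but the wild-type value, with overlapping groups, was -7.74 points without the Zfp704 amplicon and 0.926 points without mock replicate 1. REST LMRs (88 shared CpGs) had -5.88 points in the wild type and -3.91 in TTKO, and fully methylated regions (22 CpGs) -6.60 and -4.03. In both of these classes the groups were apart in either line. Neuronal-progenitor-specific LMRs (21 shared CpGs) had -6.67 points in the wild type and -0.377 in TTKO, where the groups overlapped. These differences between lines within a class were not tested.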

How the data were processed

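Wild-type amplicon bisulfite libraries of 6 samples (Cre and mock, day 4) were analysed, with day 0, later wild-type and TTKO day 4 samples for reference. The authors trimmed the reads, aligned them to mm9 with Rbowtie in QuasR and called levels with AmpliconBiSeq. The authors deposited coverage as a count of reads per CpG and the methylation level as a fraction, without normalization, and set levels under 100 reads to missing. Coverage times level was whole at 100% of values and gave methylated reads. Reads were not realigned here. Groups came from the labels.

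Methylated and unmethylated reads of each CpG were fitted by quasi-binomial logistic regression, run in R 4.3.3 (0.5 added to each count, dispersion moderated with limma 3.58.1 and not under 1), two-sided, with Benjamini-Hochberg adjustment over all CpGs and a threshold of 0.05. Amplicons were fitted with limma on mean log2 odds over their CpGs. Sample means were compared with exact permutation tests, whose smallest p is 0.1 for 3 against 3. The 2 models per CpG, quasi-binomial and limma on log2 odds, were run on simulated data with a replicate spread set as at later days. That spread was smaller than the one at day 4, so the run does not show how the models perform here. The amplicon and interaction models were not simulated. Python 3.11.15, pandas 2.3.3 and matplotlib 3.10.9 were used for means and plots. Positions and gene annotation are those of NCBIM37 with GENCODE M1.

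Named CpGs were those under the threshold, at most 10 per direction, and, as fewer than 6 passed, the 10 with the largest absolute difference among CpGs whose groups do not overlap, with at most 2 per amplicon. Named amplicons were the 5 with the most negative and the 3 with the most positive difference, and the 3 with the smallest difference at a mock level of at least 20%. The members, classes and tests were chosen with earlier results of these data known. Same-numbered Cre and mock samples deviated from their group means with correlations of 0.0812, 0.198 and -0.0786, so the replicate numbers were not taken as pairs. The alternatives tried were coverage minimums, other models, scales and weightings, a replicate block and leaving out each sample.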

Additional observations from a re-analysis of the deposited data

How the results depend on the processing

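The lower mean level with Cre kept its direction under all alternatives run for it. Leaving out each sample gave -6.80 to -4.29 percentage points, and the replicate block gave -5.51 points with an exact sign permutation p of 0.25, the smallest for 3 pairs. Restricted to the 204 CpGs with no level within 0.5 points of 0 or 100%, a choice made after seeing the data, the difference was -8.08 points. Of these, 0 CpGs were called in either direction. Their mock mean was 44.6%, against 37.6% over all 372 CpGs, so the value is for another set of CpGs. The count of CpGs called lower was 0 to 4 and higher 0 to 0 over the leave-one-out fits, 83 and 9 with the spread of all 39 wild-type samples, 2 and 2 with limma on log2 odds, 1 and 0 with limma on the level, 2 and 0 without moderation, and 0 and 0 with the replicate block. For amplicons it was 0 to 15 lower and 0 to 1 higher over the leave-one-out fits, 3 lower with limma on the mean level and 0 with the block. For the interaction it was 0 to 3 lower and 0 to 0 higher on leaving out samples, and limma on log2 odds gave 1 higher.

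With bins of the TTKO day 0 level the differences became, from the lowest to the highest bin, -1.44, -4.60, -9.43, -9.20, -13.2 and -4.55 points. The largest loss thus moved to the bin of 70 to 90%, and in the second and the last bin the groups overlapped. Leaving out each sample gave, by class, -1.88 to -0.710 points (unmethylated, smallest without mock replicate 1), -12.8 to -9.85 (CTCF), -6.61 to -4.69 (REST), -15.8 to -13.4 (constitutive), -5.95 to 0.926 (stem-cell-specific, reversed without mock replicate 1), -7.20 to -3.44 (neuronal-progenitor-specific, smallest without mock replicate 2), -8.27 to -5.76 (fully methylated), -3.30 to -1.88 (methylated island) and -4.71 to -3.16 (methylated promoter-type region). By starting level it gave -3.52 to -2.33, -11.4 to -5.47, -18.2 to -15.0, -14.0 to -7.53, -5.76 to -3.58 and -2.29 to -1.35 points from the lowest to the highest bin. The log2 odds ratio of LMR39 ran from -0.41 to 0.47 on leaving out each sample, positive without Cre replicate 2 (0.10) and without mock replicate 2 (0.47), and LMR47 reversed in sign with limma on the mean level, at 0.0101 as a fraction. The causes were not tested.

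With 3 samples against 3 an exact test cannot pass 0.05. Changes of single CpGs were not detectable at the spread between these samples under the main model, which does not show that they are absent.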
